A study of Mus musculus with 4 samples.

Results

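The genes described here are 9 components of the TGF-β pathway, chosen by name: the ligand gene *Tgfb1*, the receptor genes *Tgfbr1* and *Tgfbr2*, *Smad2*, *Smad3*, *Smad4*, *Smad7*, and the corepressor genes *Ski* and *Skil*. All 9 were found by Entrez identifier among the 19339 genes listed. RNA-seq was performed on TCRαβ+CD8αα+ intraepithelial lymphocytes (IELs, T cells that live within the gut epithelium) sorted from the small intestine of C57BL/6 mice as CD45+CD4-TCRβ+CD8α+CD8β- cells. There were 4 libraries, replicates 1 and 3 of control mice with loxP-flanked *Kdm6b* (*Kdm6b* fl/fl) and replicates 1 and 3 of mice that in addition carry *CD4Cre* (*Kdm6b* fl/fl-*CD4Cre*), in which Cre, active from a late double-negative thymocyte stage, is meant to delete the H3K27 demethylase gene *Kdm6b* in αβ T cells. Each library held pooled RNA of 3 mice, and the age of the mice is not given in the sources used here. Values are FPKM, fragment counts divided by transcript length and by the mapped fragments of the library, so levels of different genes can be set side by side.

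TGF-β is secreted in a latent form, and once released it binds the type II receptor Tgfbr2, which phosphorylates the type I receptor Tgfbr1. Tgfbr1 phosphorylates the receptor-regulated Smads, Smad2 and Smad3, which enter the nucleus with the common Smad, Smad4, and act on target genes. Smad7 blocks the receptor step, and Ski and SnoN (the product of *Skil*) repress Smad complexes on DNA. TGF-β is known to support the development of CD8αα+ IELs, to raise CD8α in their thymic precursors and to raise the integrin αE (CD103, the product of *Itgae*) that holds T cells at epithelial E-cadherin.

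A few facts of the libraries bear on every value below. *Kdm6b* had 16.5 and 16.0 FPKM in the control libraries and 18.2 and 11.1 FPKM in replicates 1 and 3 labelled *Kdm6b* fl/fl-*CD4Cre*, so it was not lower in replicate 1, and these libraries are called CD4Cre-labelled here. The gene-level FPKM includes exons that the deletion may leave in place. Summed FPKM of 6 T cell markers (*Cd3d*, *Cd3e*, *Cd3g*, *Cd247*, *Ptprc*, *Lck*) was 4462 and 3630 in control replicates 1 and 3, and 3640 and 2518 in CD4Cre-labelled replicates 1 and 3. Summed over 22 epithelial markers it was 1372 and 4479 in the controls and 4248 and 10912 in the CD4Cre-labelled libraries, and all 22 markers had a higher mean in the latter. The 6 IEL markers were *Cd8a*, *Itgae*, *Cd160*, *Gzma*, *Gzmb* and *Fcer1g*. Their summed FPKM was 23636 and 15890 in the controls and 14929 and 11649 in the CD4Cre-labelled libraries. All 6 had a lower mean in the latter. None of the T cell, IEL or epithelial markers was at 0 in any library. Of the markers of gated-out cells *Cd8b1* was 0 to 1.64 FPKM, while *Cd4* was 30.6 and 30.5 FPKM in the replicate 1 libraries and 10.1 and 3.17 FPKM in the replicate 3 libraries. Myeloid markers (6 genes) summed to 353 to 563 FPKM in the controls and 594 to 814 FPKM in the CD4Cre-labelled libraries, B cell markers (5 genes) to 33.7 to 55.3 and 31.5 to 84.8 FPKM, and the 6 measured markers of stroma and endothelium to 16.9 to 18.9 and 14.3 to 15.6 FPKM. What part these differences have in the results below was not tested. In such bulk samples, fewer T cells and less RNA per T cell cannot be told apart.

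**Figure D1:**
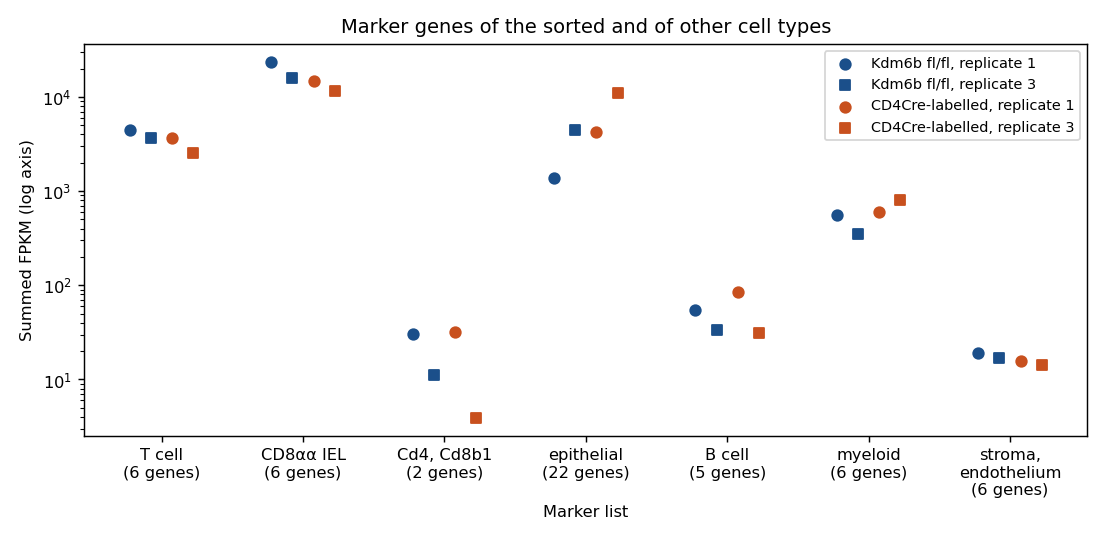
Summed FPKM (log axis) of marker genes in each of the 4 libraries, with circles for replicate 1, squares for replicate 3, blue for *Kdm6b* fl/fl and orange for CD4Cre-labelled libraries. Control replicate 3 and CD4Cre-labelled replicate 1 had similar epithelial sums (4479 and 4248) and similar T cell sums (3630 and 3640), while CD4Cre-labelled replicate 3 had the highest epithelial and the lowest T cell sum.

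The 9 genes spanned a wide range of levels, from a mean over the 4 libraries of 66.2 FPKM for *Skil* to 2.77 FPKM for *Tgfb1*. In order of mean FPKM they were *Skil*, *Tgfbr2* (28.8), *Tgfbr1* (13.0), *Smad2* (8.82), *Ski* (8.21), *Smad4* (7.85), *Smad7* (7.50), *Smad3* (4.79) and *Tgfb1*. *Skil* was above *Tgfbr2*, *Tgfbr2* above *Tgfbr1*, and *Tgfbr1* above *Smad2* with no overlap of their ranges over the 4 libraries. From *Smad2* downwards each gene's range overlapped that of the next, so *Smad2*, *Ski*, *Smad4* and *Smad7* did not differ from their neighbours in this order beyond their spread. *Smad7* was nevertheless above *Smad3*, and *Smad3* above *Tgfb1*, in all 4 libraries. All 9 genes were at 1.79 FPKM or more in every library, so none depended on a single group to pass the filter of at least 1 FPKM in at least 2 libraries. By a rough conversion from transcript length, *Tgfb1* rested on about 59 to 129 fragments per library, and the other 8 genes on about 199 (*Smad4*) to 6933 (*Skil*). The annotated genes *Gm32435*, *Gm31292*, *Gm51710* and *Gm41776* overlap *Tgfbr1*, *Tgfbr2*, *Smad3* and *Smad7*, and as the strand of the libraries is not stated, their reads cannot be told apart.

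**Figure D2:**
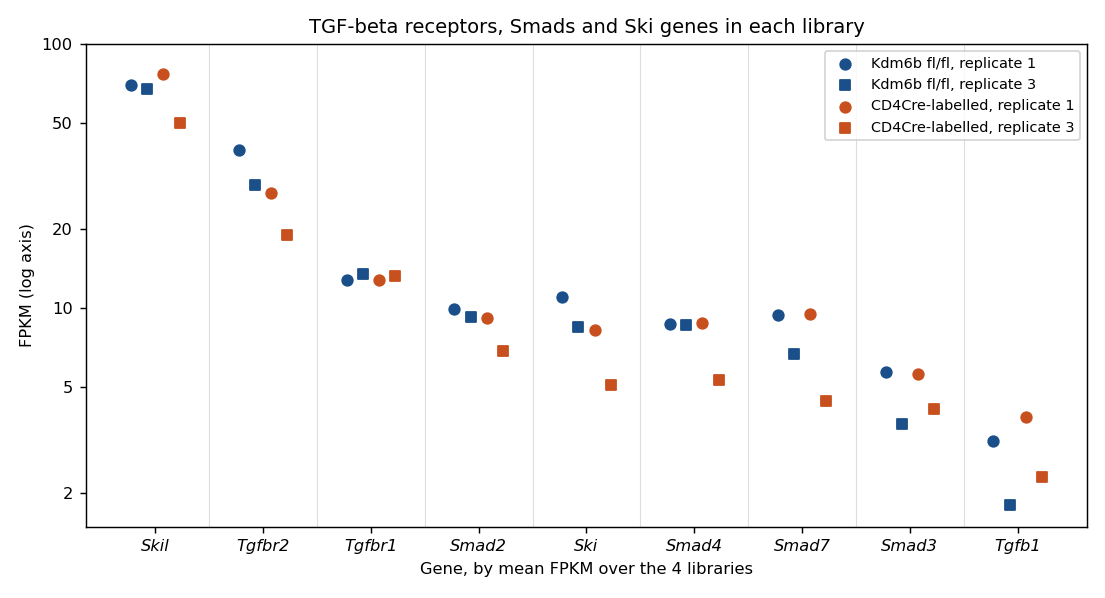
FPKM (log axis) of the 9 genes in each library, ordered by mean, with circles for replicate 1, squares for replicate 3, blue for *Kdm6b* fl/fl and orange for CD4Cre-labelled libraries. *Tgfbr2*, *Smad2* and *Ski* had both CD4Cre-labelled libraries below both controls, *Tgfbr1* stayed between 12.7 and 13.4 FPKM, and in 6 of 9 genes the groups overlapped. Of all genes tested 18.6% lay below both controls and 18.4% above.

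The comparison of genotypes asks whether loss of Kdm6b in T cells alters the machinery with which IELs receive TGF-β. Differences are those of group means of log2(FPKM + 1), CD4Cre-labelled minus control, tested with limma over the 12009 genes that passed the filter. None of the 9 genes was called at an adjusted p under 0.05, and over all genes tested 0 genes were called, a background of 0%. The p-values measure the spread between 2 pooled libraries a group. The smallest adjusted p of any gene was 0.193, 642 genes had an unadjusted p under 0.05, and none of the 9 was among them (0 of 9). A difference above 1 or below -1 was found in 6.64% of all genes tested and in 0 of the 9. Both CD4Cre-labelled libraries lay below both controls in 3 of the 9 genes (*Tgfbr2*, *Smad2* and *Ski*), where 18.6% of all genes tested did so. Both lay above in 0 of the 9, against 18.4% of all genes tested. The median difference of the 9 was -0.24, and that of all genes tested was 0.000965. Of the 9 values 7 were negative, and the 2 positive ones were those of *Tgfb1* and *Smad3*. Without CD4Cre-labelled replicate 3 the median of the 9 was 0.0112 and 4 of 9 values were negative, without control replicate 1 it was -0.127 with 7 of 9 negative, without control replicate 3 it was -0.288 with 8 of 9 negative, and without CD4Cre-labelled replicate 1 it was -0.453 with 8 of 9 negative. With the mean epithelial marker level as a covariate it was -0.0333 with 5 of 9 negative. On a scale relative to *Cd3d*, *Cd3e*, *Cd3g* and *Ptprc*, 2 of the 9 lay below both controls (*Tgfbr2* and *Ski*), beside 3.09% of all genes tested, and 3 of the 9 lay above (*Skil*, *Smad3* and *Tgfb1*), beside 37.2% of all genes tested. That scale moved genes upwards as a whole, to a median difference of 0.355 over all genes tested, so its shares below and above are uneven.

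Of the receptors, *Tgfbr2* had CD4Cre-labelled values below the controls and *Tgfbr1* had overlapping values. *Tgfbr2* (Entrez 21813, GRCm38 chr9:116087695-116175363), which binds the ligand, had 39.6 and 29.3 FPKM in control replicates 1 and 3, and 27.2 and 19.0 FPKM in CD4Cre-labelled replicates 1 and 3. Both CD4Cre-labelled values were below both controls, although the gap between the lowest control and the highest CD4Cre-labelled library was small, and replicate 1 was above replicate 3 in both groups. Group means were 34.4 ± 7.3 and 23.1 ± 5.84 FPKM (SD, n = 2), a log2 difference of -0.56 (standard error 0.27, 95% interval -1.24 to 0.11, limma adjusted p = 0.755). This difference was lower than that of all but 3.94% of the genes tested. The *Tgfbr2* log2 difference was -0.525 between the replicate 1 libraries, -0.601 between the replicate 3 libraries and -0.101 between control replicate 3 and CD4Cre-labelled replicate 1, whose epithelial and T cell marker sums were close. With 1 library left out it was -0.31 (without CD4Cre-labelled replicate 3), -0.35 (without control replicate 1), -0.77 (without control replicate 3) or -0.81 (without CD4Cre-labelled replicate 1).

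*Tgfbr1* (Entrez 21812, chr4:47353222-47414926), the kinase that phosphorylates Smads, had 12.8 and 13.4 FPKM in the controls and 12.7 and 13.3 FPKM in the CD4Cre-labelled libraries. The groups overlapped and all 4 values lay close together, with replicate 3 slightly above replicate 1 in each group. Its log2 difference was -0.012 (standard error 0.22, 95% interval -0.57 to 0.55, limma adjusted p = 0.993), an interval that leaves room for a difference of about the size seen for *Tgfbr2*. The level of *Tgfbr1* relative to *Tgfbr2* in the same library, which does not depend on how libraries are scaled, was 0.323 and 0.459 in the controls and 0.467 and 0.7 in the CD4Cre-labelled libraries. Both CD4Cre-labelled ratios were above both control ratios, though control replicate 3 and CD4Cre-labelled replicate 1 were nearly equal. The log2 difference was 0.57 (exact two-sided permutation p = 0.333, the smallest that 2 against 2 libraries can give). This difference was 0.279 without CD4Cre-labelled replicate 3, 0.317 without control replicate 1, 0.824 without control replicate 3 and 0.862 without CD4Cre-labelled replicate 1. Relative to the geometric mean of *Cd3d*, *Cd3e*, *Cd3g* and *Ptprc* in each library, *Tgfbr2* stood at 6.21% and 5.66% in the controls and 5.26% and 5.13% in the CD4Cre-labelled libraries, while *Tgfbr1* stood at 2% and 2.59% against 2.46% and 3.59%. On that scale too the *Tgfbr2* groups did not overlap and the *Tgfbr1* groups did.

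The 250 bases before the annotated start of each receptor gene (RefSeq, GRCm38.p6) are shown because the question of the comparison turns on these 2 genes. Capitals mark CAGAC, the Smad box found in Smad-binding elements, and GGGCGG, the GC box bound by Sp1, each searched on both strands; the motifs do not overlap here. The *Tgfbr1* window is chr4:47352972-47353221 on the plus strand and the *Tgfbr2* window is chr9:116175364-116175613 on the minus strand, both written 5′ to 3′.
Tgfbr1: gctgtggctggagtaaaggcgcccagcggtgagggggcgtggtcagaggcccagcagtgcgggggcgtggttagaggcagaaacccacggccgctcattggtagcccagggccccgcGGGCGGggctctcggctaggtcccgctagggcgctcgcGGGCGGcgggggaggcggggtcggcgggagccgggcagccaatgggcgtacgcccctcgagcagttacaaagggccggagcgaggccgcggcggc
Tgfbr2: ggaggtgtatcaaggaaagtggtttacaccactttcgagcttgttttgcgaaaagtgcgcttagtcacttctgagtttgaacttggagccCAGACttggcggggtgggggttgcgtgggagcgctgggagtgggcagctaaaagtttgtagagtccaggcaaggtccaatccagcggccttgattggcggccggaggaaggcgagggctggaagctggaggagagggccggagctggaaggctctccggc

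The *Tgfbr1* window held 2 GC boxes, at positions -133 to -128 and -95 to -90 from the start, and no Smad box. The *Tgfbr2* window held 1 Smad box, at -160 to -156, and no GC box. Of 32851 windows of the same length, 42.2% held CAGAC and 32.7% held GGGCGG on either strand. The *Tgfbr1* window was 74.8% G or C and the *Tgfbr2* window 58.4%, with a median of 52.4% over all windows. These matches describe the letters of the windows and say nothing of binding.

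*Tgfb1* (Entrez 21803, chr7:25687002-25705077), the ligand gene, was the lowest of the 9, at 3.14 and 1.79 FPKM in the controls and 3.85 and 2.29 FPKM in the CD4Cre-labelled libraries. Replicate 1 was above replicate 3 in both groups and the groups overlapped. The log2 difference was 0.23 (standard error 0.38, limma adjusted p = 0.886). With 1 library left out it was -0.052 (without control replicate 3), -0.047 (without CD4Cre-labelled replicate 1), 0.51 (without CD4Cre-labelled replicate 3) or 0.52 (without control replicate 1). *Tgfb3*, another ligand of the same receptors, was far more abundant than *Tgfb1* in every library, with 58.7 and 45.6 FPKM in the controls and 32.3 and 36.5 FPKM in the CD4Cre-labelled libraries. Its groups did not overlap, and its log2 difference was -0.58 (standard error 0.21, unadjusted p = 0.035 and adjusted p = 0.755 from limma). *Tgfb2* was at 0.26 FPKM or below in all libraries.

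Among the receptor-regulated Smads, *Smad2* (Entrez 17126, chromosome 18) had 9.94 and 9.28 FPKM in the controls and 9.17 and 6.89 FPKM in the CD4Cre-labelled libraries. Both CD4Cre-labelled values were below both controls, replicate 1 only just. The log2 difference was -0.24 (standard error 0.27, limma adjusted p = 0.838), and between -0.43 (without CD4Cre-labelled replicate 1) and -0.06 (without CD4Cre-labelled replicate 3) with 1 library left out. *Smad3* (Entrez 17127, chr9:63646766-63757994) had 5.74 and 3.65 FPKM in the controls and 5.63 and 4.14 FPKM in the CD4Cre-labelled libraries. Its values followed the replicate number rather than the genotype, and the log2 difference was 0.06 (standard error 0.34, limma adjusted p = 0.971). The ratio of *Smad3* to *Smad2* was 0.577 and 0.393 in the controls and 0.614 and 0.601 in the CD4Cre-labelled libraries. Both latter ratios were above both control ratios (log2 difference 0.35, exact two-sided permutation p = 0.333), but the difference was 0.073 without control replicate 3 and 0.627 without control replicate 1. *Smad2* and *Smad3* together had 15.7 and 12.9 FPKM in the controls and 14.8 and 11.0 FPKM in the CD4Cre-labelled libraries, which overlapped.

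*Smad4* (Entrez 17128, chromosome 18), the partner of Smad2 and Smad3, had 8.69 and 8.64 FPKM in the controls and 8.74 and 5.33 FPKM in the CD4Cre-labelled libraries. Here 3 libraries agreed closely and CD4Cre-labelled replicate 3 alone was low, so the log2 difference of -0.30 (standard error 0.32, limma adjusted p = 0.829) became 0.011 without that library and -0.61 without CD4Cre-labelled replicate 1. *Smad7* (Entrez 17131, chromosome 18), the inhibitory Smad and itself a target of TGF-β signalling, had 9.38 and 6.68 FPKM in the controls and 9.47 and 4.45 FPKM in the CD4Cre-labelled libraries. The replicate 1 libraries of both genotypes were nearly equal and the replicate 3 libraries were lower in both. Its log2 difference of -0.24 (standard error 0.41, limma adjusted p = 0.888) became 0.23 without CD4Cre-labelled replicate 3 and -0.71 without CD4Cre-labelled replicate 1. The ratio of *Smad7* to *Smad3* was 1.63 and 1.83 in the controls and 1.68 and 1.07 in the CD4Cre-labelled libraries, with overlapping groups (exact two-sided permutation p = 0.667).

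Of the 2 corepressor genes, *Ski* was the lower in every library. *Ski* (Entrez 20481, chr4:155154075-155222535) had 11.0 and 8.49 FPKM in the controls and 8.24 and 5.12 FPKM in the CD4Cre-labelled libraries. Both CD4Cre-labelled values were below both controls, with a small gap between control replicate 3 and CD4Cre-labelled replicate 1 and with replicate 1 above replicate 3 in both groups, as for *Tgfbr2*. The log2 difference was -0.50 (standard error 0.33, 95% interval -1.32 to 0.31, limma adjusted p = 0.761), and between -0.80 (without CD4Cre-labelled replicate 1) and -0.21 (without CD4Cre-labelled replicate 3) with 1 library left out. *Skil* (Entrez 20482, chr3:31095058-31122923), like *Smad7* a target of the pathway that feeds back on it, had 70.1 and 67.8 FPKM in the controls and 76.7 and 50.1 FPKM in the CD4Cre-labelled libraries. The CD4Cre-labelled libraries lay on either side of the controls, and the log2 difference was -0.15 (standard error 0.25, limma adjusted p = 0.885). With 1 library left out it ranged from -0.45 (without CD4Cre-labelled replicate 1) to 0.15 (without CD4Cre-labelled replicate 3). *Ski* relative to *Skil* was 0.156 and 0.125 in the controls and 0.107 and 0.102 in the CD4Cre-labelled libraries, with no overlap (log2 difference -0.42, exact two-sided permutation p = 0.333; -0.257 without control replicate 1). On the scale of the *Cd3* genes and *Ptprc*, *Ski* was 1.72% and 1.64% in the controls and 1.59% and 1.38% in the CD4Cre-labelled libraries, whereas *Skil* was 11% and 13.1% against 14.8% and 13.5%, above both controls. On that scale 3.09% of all genes tested lay below both controls and 37.2% above.

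**Figure D3:**
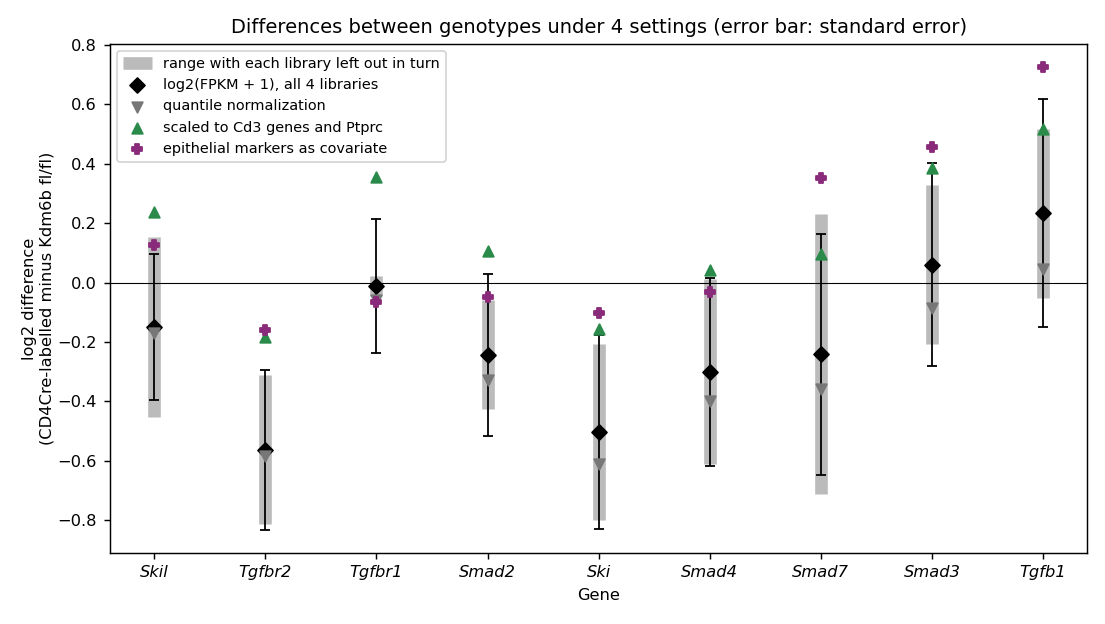
Log2 difference of each gene, CD4Cre-labelled minus control, on log2(FPKM + 1) with its standard error (black), after quantile normalization, after scaling to *Cd3* genes and *Ptprc*, and with the mean epithelial marker level as a covariate; grey bars span the fits that leave out each library in turn. *Tgfbr2* and *Ski* kept negative values in all of these fits, between -0.81 and -0.16 for *Tgfbr2* and between -0.80 and -0.10 for *Ski*, while each of the other 7 changed sign in at least 1, *Smad2* only on the *Cd3* and *Ptprc* scale, where its 0.107 was below the median of all genes (0.355).

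Scaling libraries to the *Cd3* genes and *Ptprc* raised the median difference of all genes tested from 0.000965 to 0.355, so values on that scale are read against that median. There the difference of *Tgfbr2* was -0.18 and that of *Ski* -0.16, and the other 7 genes had positive values, with *Smad2*, *Smad4*, *Smad7*, *Skil* and *Tgfbr1* below the median and *Smad3* (0.39) and *Tgfb1* (0.52) above it. In the fit as deposited 7 of the 9 genes lay below the median of all genes, and 5 of 9 (without CD4Cre-labelled replicate 3) to 8 of 9 (without CD4Cre-labelled replicate 1 or control replicate 3) did with 1 library left out. With the epithelial marker level as a covariate 5 of 9 did, and the differences of *Tgfbr2* and *Ski* were then -0.16 and -0.10.

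Genes whose values ran most like those of each receptor over the 4 libraries were found by the Euclidean distance between centred log2 values. For *Tgfbr1* these were *Ptms* (distance 0.0091), *Psmg3* (0.0196) and *Mrs2* (0.0203), among 1211 genes within 0.2. For *Tgfbr2* they were *Elovl5* (0.0249), *Ttc7b* (0.0397) and *Nfatc1* (0.0634), among 219 genes within 0.2. *Elovl5*, an elongase of polyunsaturated fatty acids, had 120 and 91.2 FPKM in the controls and 84.3 and 60.0 FPKM in the CD4Cre-labelled libraries. *Nfatc1*, a transcription factor of T cell activation, had 69.7 and 52.4 FPKM against 51.1 and 34.7 FPKM.

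The pathway around the 9 genes was described with a list of 84 further genes, of which 81 were measured and 63 passed the filter. Of these 63, limma called 0, 15 had both CD4Cre-labelled libraries below both controls and 16 had both above, beside 18.6% and 18.4% of all genes tested. Of the 15, 1 gene (*Itgb8*) passed the filter through the controls alone. Of the 16, *Acvrl1*, *Bmpr1a* and *Itgb6* reached 1 FPKM in only 1 control and passed only with the CD4Cre-labelled libraries. Their place above the controls is no result. The median difference was -0.043. Fits of these genes with 1 library left out were added after the data had been seen. Among the ligands, *Gdf15*, a stress-induced distant relative of TGF-β, had 2.82 and 3.04 FPKM in the controls and 7.37 and 7.86 FPKM in the CD4Cre-labelled libraries. These groups were well apart, with a log2 difference of 1.13 (standard error 0.28, unadjusted p = 0.00815, limma adjusted p = 0.755), and of 1.09 to 1.17 with 1 library left out. Of the latent complex proteins and activators, the most abundant was *Nrros*, which tethers latent TGF-β on myeloid cells, at 22.5 and 15.2 FPKM against 23.6 and 21.5 FPKM. *Itgb8*, the β8 chain of an integrin that activates latent TGF-β, had 1.74 and 1.35 FPKM against 0.14 and 0.60 FPKM. It passed the filter through the controls alone, so its place below them is no result, and it was named after its values were seen. Other receptors and co-receptors were all low, the highest being the activin receptor *Acvr2a* at 4.67 to 5.24 FPKM, with 1 of 7 below and 4 above. The 4 include *Acvrl1* and *Bmpr1a*.

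Of the other Smads, *Smad1*, which carries signals of bone morphogenetic proteins, had 2.94 and 5.90 FPKM in the controls and 7.80 and 10.6 FPKM in the CD4Cre-labelled libraries. Both latter values were higher than both controls (log2 difference 0.95, standard error 0.38, limma adjusted p = 0.755), and the difference was 0.55 without control replicate 1 and 1.36 without control replicate 3. *Id1*, a target of the same signals, had 12.5 and 41.1 FPKM against 43.2 and 79.5 FPKM (log2 difference 1.32, standard error 0.58, limma adjusted p = 0.755), and its difference was 0.50 without control replicate 1 and 2.14 without control replicate 3. Control replicate 3 and CD4Cre-labelled replicate 1 were nearly equal in *Id1*. *Id3* had 74.9 and 124 FPKM against 142 and 199 FPKM, and *Cdkn2b*, an inhibitor of the cell cycle that TGF-β raises, had 6.12 and 16.5 FPKM against 12.8 and 35.7 FPKM, the latter with overlapping groups. With 1 library left out the difference of *Id3* (0.79) ranged from 0.43 without control replicate 1 to 1.15 without control replicate 3. That of *Cdkn2b* (1.02) ranged from 0.31 without CD4Cre-labelled replicate 3 to 1.72 without CD4Cre-labelled replicate 1.

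Among ubiquitin ligases, phosphatases and adaptors 2 of 12 genes lay below and 3 above, beside 18.6% and 18.4% of all genes tested. The most abundant was *Fkbp1a*, whose product holds Tgfbr1 inactive, at 104 and 134 FPKM against 139 and 144 FPKM. Nuclear partners of the Smads, a group of few genes, had 4 of 7 below and 0 above beside the same shares of all genes, with *Tgif1*, a corepressor, the most abundant at 157 and 137 FPKM against 153 and 96.1 FPKM. *Runx3*, a partner of Smads that drives the CD8 lineage, had 101 and 69.1 FPKM against 67.6 and 40.3 FPKM, so control replicate 3 and CD4Cre-labelled replicate 1 were nearly equal. Its log2 difference was -0.67 (standard error 0.32, limma adjusted p = 0.755), and it was -0.30 without CD4Cre-labelled replicate 3 and -1.03 without CD4Cre-labelled replicate 1. In the Smad-independent branch 2 of 6 lay below and 0 above, and *Rhoa* was the most abundant at 151 and 168 FPKM against 144 and 146 FPKM.

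Of the genes listed here as raised by TGF-β, 3 of 12 tested lay below (*Itgae*, *Cd8a* and *Junb*) and 4 above (*Id1*, *Id3*, *Cdkn1a* and *Tgfbi*). Of all genes tested 18.6% lay below and 18.4% above, and the median difference of the 12 was 0.14. *Id1* was given above as a target of bone morphogenetic protein signals, so the list does not read TGF-β alone. *Itgae* had 383 and 301 FPKM in the controls and 227 and 245 FPKM in the CD4Cre-labelled libraries (log2 difference -0.52, standard error 0.20, limma adjusted p = 0.755), with no overlap. *Cd8a* had 463 and 418 FPKM against 337 and 280 FPKM, and the groups did not overlap (log2 difference -0.52, standard error 0.20, limma adjusted p = 0.755). *Junb*, the most abundant gene of that group, had 1644 and 1413 FPKM against 1383 and 1188 FPKM. Of the genes that TGF-β is known to lower, 1 of 6 tested lay below and 1 above. The 1 below was *Gzmb*, the gene of granzyme B and the most abundant of the group, with 3378 and 2488 FPKM in the controls and 1515 and 1279 FPKM in the CD4Cre-labelled libraries (log2 difference -1.06, standard error 0.29, limma adjusted p = 0.755). *Itgae*, *Cd8a* and *Gzmb* are also among the 6 IEL markers, all of which had lower means in the CD4Cre-labelled libraries. The 1 above was *Klf2*, a factor that keeps T cells in circulation, with 4.13 and 2.79 FPKM against 7.22 and 4.85 FPKM. *Itgae* and *Klf2* were named after their values were seen. A rule on the size of the difference or on calls named *Id1*, *Gdf15*, *Gzmb*, *Cdkn2b*, *Smad1*, *Id3*, *Runx3* and *Cd8a*. The values given for these genes are therefore selected and are no independent test.

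**Figure D4:**
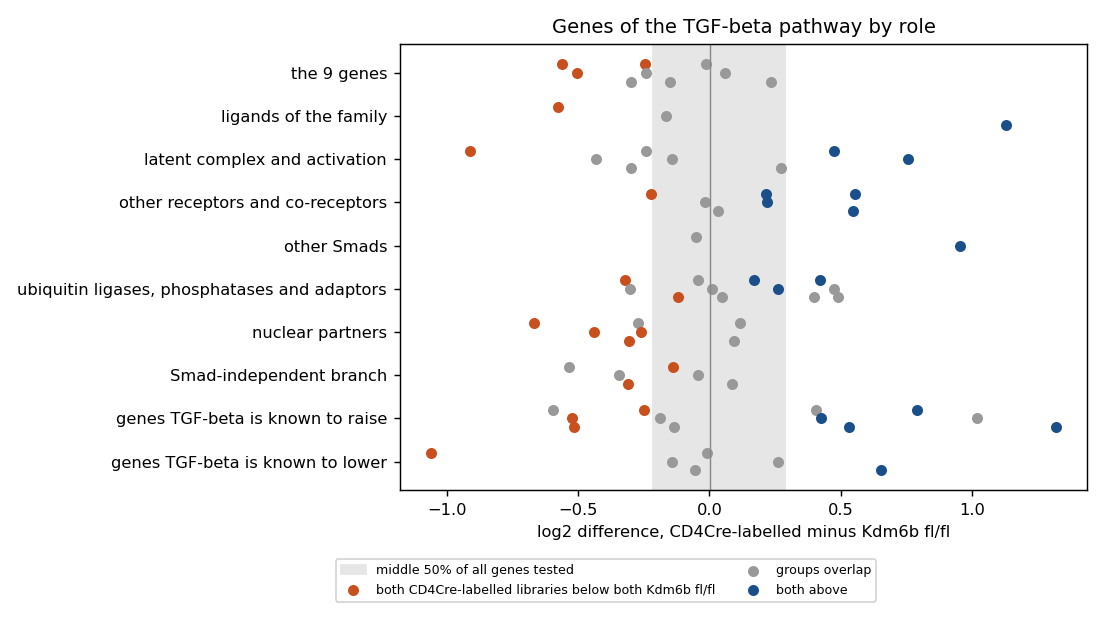
Log2 difference (x axis, CD4Cre-labelled minus control) of the 9 genes and of 63 further tested pathway genes by role (rows), coloured by whether both CD4Cre-labelled libraries lay below or above both controls; the grey band holds the middle 50% of all genes tested (-0.22 to 0.29). Of the 9 genes *Tgfbr2*, *Ski*, *Smad2*, *Smad4* and *Smad7* lie to the left of the band and none to its right.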

How the data were processed

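The authors sequenced RNA of sorted IELs and deposited FPKM per gene for each library; the submitters' processing notes and the study's methods name HISAT, Bowtie2 (2.2.5) and RSEM (1.2.8) with mm10. No counts were used, so no count test was run. The low values gave a relative depth of 0.833 to 1. Genes were named by Entrez identifier from RefSeq (18467 of 19339 matched). Genes reaching 1 FPKM in 2 or more libraries were kept, and log2(FPKM + 1) of the 2 groups was compared with limma (3.58.1, R 4.3.3; moderated variances with trend, Benjamini-Hochberg adjustment over all 12009 genes), a scale that understates changes of low genes. Calls needed an adjusted p under 0.05. Ratios were tested by exact permutation (scipy 1.17.1). The scripts were tested on simulated data. The 9 genes and the lists were chosen with earlier results of these data known. Named pathway genes were those past a log2 difference of 1, those called by limma, also when blocked by replicate number, and the most abundant of each role. Alternatives were other pseudocounts, filters, scalings, covariates and leaving out each library.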

Additional observations from a re-analysis of the deposited data

How the results depend on the processing

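None of the 9 genes was called under any of the 14 alternatives (8 of the 9 were tested at the filter of 5 FPKM), but in 12 of these no gene at all was called, so the count says nothing of stability there. *Tgfbr2* and *Ski* kept negative differences in all 14, with smallest adjusted p values from limma of 0.0736 and 0.255. Scaling to the *Cd3* genes and *Ptprc* gave positive values for *Tgfbr1* (0.354), *Smad2* (0.107), *Smad4* (0.0428), *Smad7* (0.0968), *Skil* (0.236) and *Kdm6b* (0.187). That scaling raised the median of all genes tested to 0.355, and each of these values lay below it. The epithelial covariate gave positive values for *Smad7* (0.352), *Skil* (0.127) and *Kdm6b* (0.124), and quantile normalization turned *Smad3* to -0.087. Over the 4 fits that each leave out 1 library the ranges were -0.0516 to 0.518 for *Tgfb1*, -0.0445 to 0.021 for *Tgfbr1*, -0.207 to 0.328 for *Smad3*, -0.611 to 0.0112 for *Smad4*, -0.712 to 0.23 for *Smad7* and -0.453 to 0.152 for *Skil*. Without CD4Cre-labelled replicate 3 the values were 0.0112 for *Smad4*, 0.23 for *Smad7*, 0.152 for *Skil* and 0.157 for *Kdm6b*, whose range over the libraries left out was -0.515 to 0.157. Without control replicate 3 they were -0.0516 for *Tgfb1*, 0.021 for *Tgfbr1* and -0.207 for *Smad3*, and without CD4Cre-labelled replicate 1 they were -0.0469, 0.0167 and -0.123. The cause of these changes was not tested. *Tgfb1* was not tested at a filter of 5 FPKM.

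Genes past a log2 difference of 1 numbered 797 (93.4% higher), and 1381 and 1451 with pseudocounts of 0.1 and 0.01, 1434 with *Cd3* and *Ptprc* scaling, 463 (77.3% higher) with the epithelial covariate, and 341 to 1489 with 1 library left out. The share higher was 83.4% without CD4Cre-labelled replicate 1 and 80.7% without CD4Cre-labelled replicate 3. The epithelial covariate called 166 genes, among them 1 further pathway gene, *S1pr1* (1.48, limma adjusted p = 0.0484). Without the covariate its difference was 0.26, and -0.73 to 1.25 with 1 library left out. Its groups overlapped, at 10.4 and 5.26 FPKM in the controls and 19.1 and 4.08 FPKM in the CD4Cre-labelled libraries.

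In the replicate block fit, 1019 genes (8.49%) were called where 0 were called without it, among them 8 further pathway genes: *Id1*, *Gdf15*, *Gzmb*, *Cdkn2b*, *Smad1*, *Id3*, *Runx3* and *Cd8a*. For *Tgfbr2* the blocked adjusted p was 0.0736 (unadjusted p = 0.00815, limma). Deviations of same-numbered libraries from their group means correlated across 12009 genes (Pearson 0.56, Spearman 0.542), but with only 2 pairs and no label that explains the numbers, they are treated as shared numbers only.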
